A study of Mus musculus with 6 samples.

Results

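The complement system was examined through 9 genes that fibroblasts can express: C1ra, C1s1, C2, C3, C4b, Cfb, Serping1, C7 and Cd55. They were taken by gene symbol from the deposited count tables, and all 9 were found among 48368 symbols. Primary cancer-associated fibroblasts (CAFs) were cultured from tumours of MMTV-PyMT mice, in which the MMTV promoter drives a polyomavirus middle T transgene in mammary epithelium. The age and strain of the mice are not stated. Of the 6 libraries, 3 were labelled Hic-5+/- (HET) and 3 Hic-5-/- (KO), and both groups carried the transgene and were grown in medium with serum. Hic-5, encoded by Tgfb1i1, is an adaptor protein of focal adhesions. There was no wild-type group. Each group is described as technical triplicates, yet its titles bear distinct numbers, and 1 number recurs in HET replicate 3 and KO replicate 3. No label says whether the libraries stem from separate animals or cultures, so the p-values rest on the spread between these libraries. Libraries of 1 label differed by far more than sampling of reads allows (chi-square over its degrees of freedom, across genes, 155.5 to 338.6, where sampling alone gives values near 1).

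Complement is a cascade of plasma and cell-surface proteins that tags and lyses cells. The classical pathway starts when C1q binds a target and activates the proteases C1r and C1s, of which C1s cleaves C4 and C2. The alternative pathway uses factor B, and both arms cleave C3, the central component. Assembly of the membrane attack complex follows, in which C7 is 1 of the subunits. C1 inhibitor, the product of Serping1, inactivates C1r and C1s, and CD55 on the cell surface speeds the decay of the enzymes that cleave C3. The liver makes most plasma complement, and fibroblasts and macrophages make some of the components locally.

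Values of several libraries are listed in the order of replicates 1 to 3, in CPM, counts relative to the scaled total of the library. Tgfb1i1 measured 223, 348 and 125 CPM across the HET libraries and 90.4, 0.232 and 156 CPM across the KO libraries, so the targeted transcript was nearly absent from only 1 library labelled KO, and groups are called by their labels throughout. That library, KO replicate 2, held 0.491 CPM of the collagen gene Col1a2, against 577 to 5109 CPM elsewhere. It was also lowest for Col1a1 (2.56 CPM), Dcn (0.775 CPM), Thy1 (0.982 CPM) and Lum (0.0258 CPM). Pdgfra (124 CPM, 143.5 CPM or more elsewhere) and Pdgfrb (137.8 CPM, 183.6 CPM or more elsewhere) were lowest there too, but by less. The collagen gene Col3a1 was not lowest there, at 21.8 CPM against 9.44 CPM in KO replicate 1. Vim was not either, at 2870 CPM against 2020 CPM in KO replicate 1. The fibroblast marker Fap was at 0.455 CPM or less in every library. The 10 leukocyte and macrophage markers summed to 1453 CPM for HET replicate 2 and to 1159 CPM for KO replicate 3, with none of them at the floor. In the other 4 libraries the sum was 16.2 to 50.8 CPM and 4 to 6 of the 10 were at or under the floor. Totals ran from 24954273 to 42470598 estimated counts, and 3 counts, taken as the floor of detection, were 0.0683 to 0.119 CPM. The floor allows for counting error only. No molecular identifiers are mentioned, so repeated reads of 1 molecule cannot be told from reads of separate molecules.

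RefSeq promoter sequences (GRCm38.p6) matched 5 of the 9 genes by symbol: C1ra, C1s1, C3, C7 and Cd55. The 250 bases upstream of the start are printed for the 3 that the results turn on. They are C3, whose libraries separated by label, C1s1, which varied without separating, and Cd55, which also separated and was nearly lost in 1 library. Capitals mark matches to TTNNGNAA, a loose form of the site bound by C/EBP factors, on either strand. The windows are chr17:57228137-57228386, chr6:124542360-124542609 and chr1:130462745-130462994, each on the minus strand and printed 5′ to 3′ as transcribed.
C3: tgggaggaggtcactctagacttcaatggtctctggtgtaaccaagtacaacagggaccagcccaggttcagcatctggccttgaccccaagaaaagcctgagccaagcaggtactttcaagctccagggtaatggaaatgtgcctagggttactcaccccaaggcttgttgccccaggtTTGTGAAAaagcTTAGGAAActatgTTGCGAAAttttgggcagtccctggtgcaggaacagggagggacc
C1s1: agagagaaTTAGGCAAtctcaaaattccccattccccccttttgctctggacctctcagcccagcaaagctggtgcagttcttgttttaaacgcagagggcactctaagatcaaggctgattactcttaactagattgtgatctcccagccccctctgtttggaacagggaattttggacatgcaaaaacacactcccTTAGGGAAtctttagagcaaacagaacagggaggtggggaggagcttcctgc
Cd55: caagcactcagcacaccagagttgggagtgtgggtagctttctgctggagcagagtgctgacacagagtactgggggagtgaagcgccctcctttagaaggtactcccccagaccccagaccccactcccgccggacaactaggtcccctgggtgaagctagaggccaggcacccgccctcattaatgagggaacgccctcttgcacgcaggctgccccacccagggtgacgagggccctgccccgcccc

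The C3 window held 3 matches, between 70 and 38 bases before the start, and 2.62% of 32851 windows of this length held 3 or more. The C1s1 window held 2 matches and the Cd55 window none, and 36.9% of all windows held at least 1. None of the 3 windows matched the interferon-stimulated response element (in 2.98% of all windows), TTCNNNGAA (the STAT site, in 7.02%) or the NF-kB motif (in 7.25%), each searched on both strands. No motif overlapped another in these windows. Among the windows not printed, C1ra held 2 matches to TTNNGNAA. C7, at or under the floor in every library, held 2 matches to TTNNGNAA and 1 to TTCNNNGAA. A match is a description of the letters, not evidence of binding.

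C3, the central component of the cascade, separated fully between the labels. It measured 219.9, 53.4 and 201 CPM across the HET libraries and 27.3, 26.5 and 19.2 CPM across the KO libraries. Every library labelled KO lay below every library labelled HET, as for 7.42% of all tested genes. The HET mean was 158 ± 91.3 CPM and the KO mean 24.3 ± 4.48 CPM (SD, n = 3 each), 6.50-fold apart. KO against HET, this gave a log2 fold change of -2.70 ± 0.55 (SE, n = 3 each). C3 did not pass edgeR's test over all genes (unadjusted p = 0.00225, adjusted p = 0.579). DESeq2 placed it past its threshold (adjusted p = 7.0e-04), which 0.961% of all tested genes reached in this direction. In the 2 libraries with the most C3, HET replicates 1 and 3, 5 of the 10 leukocyte markers were at or under the floor, Ptprc among them. Csf1r, a macrophage receptor gene of the same list, was at 20.8 and 16.5 CPM there, at 43.6 CPM in HET replicate 2 and at 4.78, 0.491 and 24.3 CPM across the KO libraries, and its part in the C3 difference was not tested. Leaving out any 1 library gave log2 fold changes from -3.11 to -2.38 and unadjusted p from 4.6e-05 to 0.011 in edgeR (adjusted p from 0.393 to 0.950). The gene lies on chromosome 17 from 57203970 to 57228136 (GRCm38, minus strand).

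C4b encodes C4, the substrate of C1s, and was the other gene with a log2 fold change beyond -2. It measured 5.74, 23.4 and 22.9 CPM across the HET libraries and 0.683, 6.59 and 1.75 CPM across the KO libraries. The groups overlapped, since KO replicate 2 lay above HET replicate 1, and the HET mean was 17.4 ± 10.1 CPM and the KO mean 3.004 ± 3.15 CPM (SD, n = 3 each). Its log2 fold change of -2.53 ± 0.95 (SE) had an unadjusted p of 0.0358 and an adjusted p of 0.579 in edgeR, and DESeq2 did not call it (adjusted p = 0.133). With 1 library left out the log2 fold change ran from -2.05 to -3.86, the latter without KO replicate 2. The unadjusted p was 0.0881, 0.0866, 0.0694 and 0.102 without HET replicate 2, HET replicate 3, KO replicate 1 and KO replicate 3, so that the unadjusted threshold was missed in 4 of 6 cases. C4a, the related neighbour gene, measured 1.17, 3.58 and 2.86 CPM across the HET libraries and 0.842, 0.904 and 0.714 CPM across the KO libraries. It was lower without overlap (-1.63 ± 0.51, edgeR adjusted p = 0.579), as were 7.42% of all tested genes. The copies are alike in sequence and reads may be split between them, so the separate levels of C4a and C4b are uncertain. The ratio of C4b to C4a counts ran from 0.811 in KO replicate 1 to 8.01 in HET replicate 3.

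C2 and Cfb encode related proteases, C2 of the classical and factor B of the alternative pathway, and are neighbours on chromosome 17 (C2 from 34862604 to 34898265, Cfb from 34856374 to 34862518), in the same region as C4b (34728380 to 34743882). C2 measured 0.283, 5.18 and 7.84 CPM across the HET libraries and 8.87, 0.103 and 1.98 CPM across the KO libraries. The highest and the lowest library both carried the KO label, 85.9-fold apart, and the log2 fold change was -0.28 ± 1.51 (SE, edgeR adjusted p = 0.959). Its sign turned when HET replicate 3 (0.43), KO replicate 2 (0.30) or KO replicate 3 (0.03) was left out. Cfb measured 1.10, 4.92 and 7.14 CPM across the HET libraries and 1.02, 0.568 and 4.60 CPM across the KO libraries. The labels overlapped, with HET replicate 1 beside KO replicates 1 and 2 at the low end, and the log2 fold change was -1.09 ± 0.98 (edgeR adjusted p = 0.727). It was -2.45 without KO replicate 3 and -0.55 without HET replicate 3.

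Although they are neighbours, C2 and Cfb did not keep a constant ratio. On deposited RPKM with 0.5 counts added to each gene, the log2 ratio of C2 to Cfb was -4.52, -2.46 and -2.40 for HET and 0.57, -4.89 and -3.74 for KO. KO replicate 1 was the only library with more C2 than Cfb, per length of either the gene span or the merged exons. The difference between labels was 0.44, with an adjusted p of 0.9 over 3 ratios in an exact two-sided permutation test, which cannot go below 0.1 with 3 libraries a group. Annotation makes C2 uncertain, as Zbtb12 on the other strand shares exon bases with it (216 to 538 counts per library), and the model Gm20547 covers parts of both C2 and Cfb on the same strand (0 to 7 counts). KO replicate 2 held 478 counts of Zbtb12 and 4 of C2.

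C1ra and C1s1, the proteases of the C1 complex, are neighbours on chromosome 6 (124512405 to 124523443 on the plus strand, 124530345 to 124542359 on the minus strand) and had like profiles over the libraries. C1ra measured 53.6, 30.2 and 128.7 CPM across the HET libraries and 84.1, 46.3 and 6.74 CPM across the KO libraries. C1s1 measured 49.5, 66.4 and 258 CPM across the HET libraries and 168.7, 73.6 and 13.3 CPM across the KO libraries. For both, HET replicate 3 was highest, KO replicate 1 second and KO replicate 3 lowest, so the labels overlapped, and highest and lowest lay 19.1-fold and 19.4-fold apart. The log2 fold changes were -0.63 ± 0.91 and -0.55 ± 0.98 (SE), with edgeR adjusted p of 0.834 and 0.869. Without HET replicate 3 they were 0.13 and 0.56.

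Their copies had like profiles too. The gene with the profile most like C1ra among all tested named genes was its copy C1rb, with a root mean square difference of 0.14 (log2, over 6 libraries), and C1s2 and C1s1 followed at 0.41 and 0.42. For C1s1 the closest genes were C1s2 (0.31), C1rb (0.37) and Fam180a (0.42). Counts of C1ra were 2.30 to 3.06 times those of C1rb and counts of C1s1 were 5.79 to 10.5 times those of C1s2. These are near copies, so how the authors' counting shared reads between them is uncertain, and its part in their likeness was not tested. C1rl, a C1r-like gene, stood at 20.8 to 22.9 CPM in the HET libraries and at 20.8, 8.21 and 10.2 CPM in KO replicates 1 to 3 (-0.73 ± 0.39, edgeR adjusted p = 0.596). The log2 ratio of C1ra to C1s1 was 0.24 in HET replicate 1 and between -1.01 and -0.55 in the other 5 libraries, with a difference between labels of -0.21 (exact permutation test, adjusted p = 0.9). Gm16567, on the other strand of C1s1, had 6 to 111 counts against 336 to 7414 for C1s1.

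**Figure D1:**
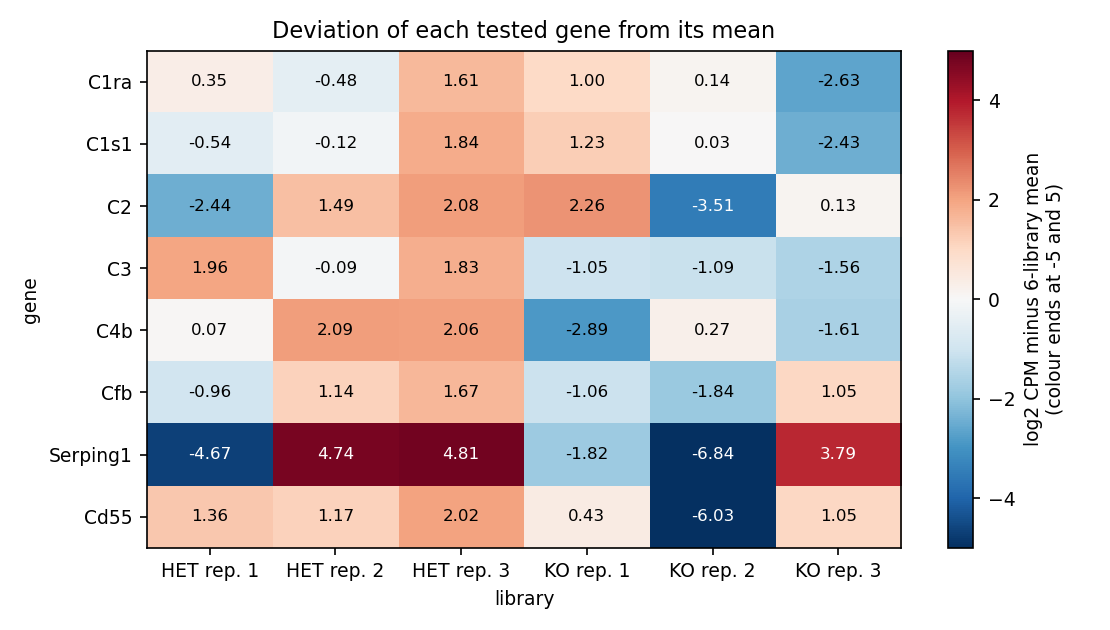
Log2 CPM of the 8 tested genes minus each gene's mean over the 6 libraries, with genes in rows, libraries in columns, red above and blue below the mean. HET replicate 3 is above the mean for all 8 genes, C1ra and C1s1 share their pattern, and Serping1 spans from -6.84 to 4.81.

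Serping1, the gene of C1 inhibitor (chromosome 2, 84765387 to 84775444, minus strand), varied more than any other of the 9. It measured 0.213, 186 and 195 CPM across the HET libraries and 1.91, 0 and 96.1 CPM across the KO libraries. The HET mean was 127 ± 110.1 CPM and the KO mean 32.7 ± 54.9 CPM (SD, n = 3 each). The libraries fell into 3 at 96.1 CPM or more and 3 at 1.91 CPM or less, and each set held both labels. In KO replicate 2 no count was found, which allows up to 0.0775 CPM, so HET replicate 3 was at least 2521-fold higher. The log2 fold change was -1.96 ± 2.49 (SE, edgeR adjusted p = 0.809), DESeq2 gave it no adjusted p, and the value was -7.03 without KO replicate 3. Of the 3 high libraries, HET replicate 2 and KO replicate 3 were those with leukocyte markers, while in HET replicate 3, with Serping1 at 195 CPM, 5 of the 10 markers were at or under the floor, Ptprc and Adgre1 among them. Lyz2, Csf1r and Cd14 were at 20.9, 16.5 and 11.1 CPM in that library. In the 3 low libraries Lyz2 was at 3.08 to 4.94 CPM, Csf1r at 0.491 to 20.8 CPM and Cd14 at 6.62 to 16.1 CPM. Csf1r in HET replicate 1 and Cd14 in KO replicate 1 thus lay above their values in HET replicate 3. The part of leukocyte transcripts in Serping1 was not tested.

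The balance of inhibitor to protease differed widely between libraries. The log2 ratio of Serping1 to C1s1 on deposited RPKM, with 0.5 counts added, was -7.38, 1.86 and -0.03 for HET and -6.09 and 3.22 for KO replicates 1 and 3. KO replicate 2 had no Serping1 count, so its ratio is set by the added counts and is not given. KO replicate 3 thus had the least C1s1 and the highest ratio of inhibitor to protease. Over all 6 libraries the difference between labels was -3.14 (two-sided exact permutation test, adjusted p = 0.9 over 3 ratios). That value rests partly on the added counts of KO replicate 2. Without KO replicate 2 the difference was 0.42 (same permutation test, p = 1).

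Cd55, the membrane regulator, lay within 16.7 to 50.5 CPM in 5 libraries and was almost missing from the other. It measured 31.7, 27.9 and 50.5 CPM across the HET libraries and 16.7, 0.129 and 25.7 CPM across the KO libraries. The 2 labels did not overlap, although KO replicate 3 lay just under HET replicate 2, and KO replicate 2 had 5 counts. Of all tested genes, 7.42% were lower in KO without overlap. The HET mean was 36.7 ± 12.1 CPM and the KO mean 14.2 ± 13.0 CPM (SD, n = 3 each). KO against HET, Cd55 had a log2 fold change of -1.38 ± 1.31 (SE, edgeR adjusted p = 0.742), moving to -0.80 when KO replicate 2 was left out and to -2.11 when KO replicate 3 was. KO replicate 2 was also the library with the least Col1a2 and the most transcript of the keratin gene Krt18 (37.9 CPM, against 0.228 to 2.93 CPM elsewhere), and of the 9 epithelial markers Cdh1 (14.6 CPM, at most 1.47 elsewhere) and Krt8 (13.7 CPM, at most 2.46 elsewhere) were likewise highest there. Krt19 went the other way, at 0.542 CPM there and at 13.0 to 64.1 CPM elsewhere. Whether a different mix of cells took part in the low Cd55 was not tested, and in bulk RNA fewer cells of a type and less RNA per cell cannot be told apart. Cd55b, the related gene beside it, was at 0 in the same library and at 0.637 to 2.43 CPM in the others, and near copies can share reads.

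Other regulators of complement were detected in KO replicate 2. Cr1l, which encodes the rodent regulator Crry, measured 53.1, 50.9 and 32.9 CPM across the HET libraries and 23.8, 29.5 and 38.6 CPM across the KO libraries (-0.58 ± 0.28, edgeR adjusted p = 0.592). Cd59a, an inhibitor of the membrane attack complex, ranged from 2.30 to 58.6 CPM over HET libraries and from 8.19 to 32.4 CPM over KO libraries (-0.65 ± 1.04, edgeR adjusted p = 0.852). In KO replicate 2 it was at 32.4 CPM, second to HET replicate 2. Clu, the soluble regulator clusterin, was at 0.248, 3.67 and 33.5 CPM in HET and at 6.48, 52.6 and 18.9 CPM in KO (1.06 ± 1.496, edgeR adjusted p = 0.830), so that KO replicate 2 was highest for it.

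C7, a subunit of the membrane attack complex, was at or under the floor in every library, with 0 to 2 counts, and was the only 1 of the 9 not tested. Among the 7 terminal genes, C8g alone was tested (0.397 to 1.30 CPM). HET replicate 3 held Hc (C5), C6, C8a, C8b and C9 at 0.157 to 0.824 CPM, where 4 or more counts were seen for each, while the other libraries held each at 0.198 CPM or less.

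The recognition component C1q was high in the libraries with leukocyte markers. C1qa, C1qb and C1qc, the subunits of C1q and typical macrophage genes, were at 64.5 to 70.3 CPM for HET replicate 2 and at 10.8 to 15.0 CPM for KO replicate 3. Elsewhere they were at 0 to 0.142 CPM, while C1ra and C1s1 were at 46.3 to 258 CPM in those 4 libraries. The 2 libraries with C1q were those with the least C1ra, which did not hold for C1s1, as HET replicate 2 (66.4 CPM) lay above HET replicate 1 (49.5 CPM). C3ar1, the receptor for the C3a fragment, was likewise highest there, at 36.1 and 42.1 CPM against 0.0775 to 4.18 CPM, and C5ar1, named outside the rule as it reached 1 CPM in only 2 libraries, was at 16.8 and 9.91 CPM against at most 0.0784 CPM. Of the lectin pathway, Masp1 alone was tested, from 14.6 to 27.7 CPM over HET libraries and at 24.0, 74.95 and 8.41 CPM for KO (0.67 ± 0.75, edgeR adjusted p = 0.777). Cfp, properdin, was at 1.17, 10.4 and 1.37 CPM in HET and 1.68, 0.827 and 2.30 CPM in KO (-1.43 ± 0.96, edgeR adjusted p = 0.658). C1qbp, a mainly mitochondrial protein that can bind C1q, ranged from 66.8 to 117 CPM over HET and from 129 to 182 CPM over KO libraries, without overlap (0.75 ± 0.28, edgeR adjusted p = 0.579), where 8.10% of all tested genes lay without overlap in that direction.

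**Figure D2:**
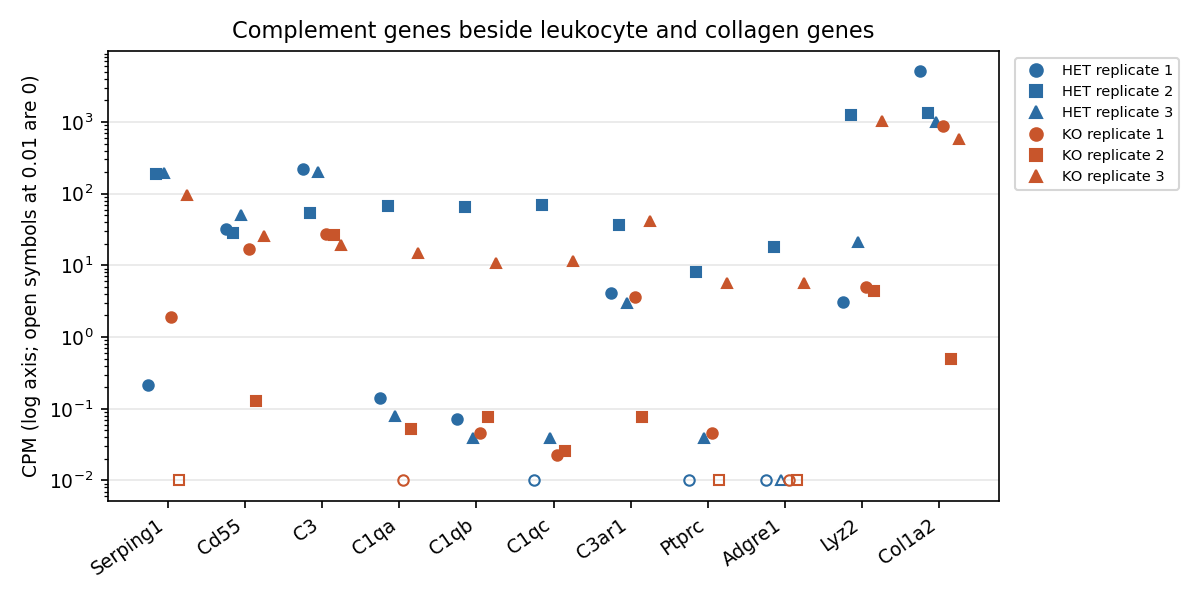
CPM on a log axis of Serping1, Cd55 and C3 beside C1q subunits, C3ar1, leukocyte genes (Ptprc, Adgre1, Lyz2) and Col1a2 in each library, with colours for labels, shapes for replicates and open symbols for 0. C1q and leukocyte genes are high in HET replicate 2 and KO replicate 3, Serping1 is high in HET replicate 3 as well, and C3 is highest in HET replicates 1 and 3.

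Across the set, all 8 tested members had a log2 fold change below 0, where 49.1% of all tested genes did, and the median was -1.24 against 0.01 for all genes. These members share libraries and partly sequence, so the count is a description. It was 5 of 8 without HET replicate 3, where C1ra, C1s1 and C2 turned above 0. No member passed the adjusted threshold of edgeR, which 0% of tested genes did, nor that of limma-voom (0%). At an unadjusted p under 0.05 in edgeR C3 and C4b were lower, C4b only with certain libraries as given above, where 4.29% of all tested genes were. The groups did not overlap in 2 of 8, C3 and Cd55, where 7.42% of all tested genes were lower without overlap. It was 3 of 8 without KO replicate 2 (C3, C4b and Cd55; 10.1% of all genes), and 3 of 8 without the 2 libraries with leukocyte markers (C3, Cfb and Cd55; 18.9% of all genes). With those 2 libraries left out, C3 had a log2 fold change of -2.99 (edgeR unadjusted p = 2.6e-04, adjusted p = 0.819).

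By library the set did not follow the label alone. HET replicate 3 lay above the gene's own mean for all 8 members and was the highest library for 5 of them. KO replicate 2 was lowest for 4 members (C2, Cfb, Serping1 and Cd55), and KO replicate 3 for 3 (C1ra, C1s1 and C3). The mean deviation of the 8 from their 6-library means was -0.61, 1.24 and 2.24 (log2) for HET and -0.24, -2.36 and -0.28 for KO. Serping1, with its wide range, weighs on these means. Without it they were -0.03, 0.74 and 1.87 for HET and -0.01, -1.72 and -0.86 for KO.

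Of the 45 other complement genes listed, 20 were tested, 13 with a log2 fold change below 0 (49.1% of all tested genes) and 7 above. None passed edgeR or DESeq2, although DESeq2 gave some of them no adjusted p. Lower by DESeq2 were 0.961% of all tested genes. Of 13 transcription factors and feedback genes known to act on complement genes, all were tested, 6 were lower and 7 higher, and the median was 0.05. None passed edgeR, and DESeq2 placed 1 past its threshold, Cebpd. Cebpd, a C/EBP factor of the acute phase response, measured 43.5, 105.7 and 257 CPM across the HET libraries and 22.7, 33.4 and 13.2 CPM across the KO libraries (-2.55 ± 0.70, edgeR adjusted p = 0.579, DESeq2 adjusted p = 0.0233). Every KO library lay below every HET library. Cebpb (-1.12 ± 0.42), Socs3, a feedback inhibitor of cytokine signalling (-1.31 ± 0.38), and Stat3 (-0.88 ± 0.26) also lay lower without overlap, each with an edgeR adjusted p of 0.579. That made 4 of 13 lower without overlap, against 7.42% of all tested genes, and 1 of 13 lower by DESeq2, against 0.961%. The list was chosen with earlier results of these data known, so these counts are a description. Nfkb1 lay higher without overlap (0.44 ± 0.22, edgeR adjusted p = 0.594). The interferon factors Stat2, Irf1, Irf7 and Irf9 overlapped between labels, and Irf1, Irf7 and Irf9 were highest in KO replicate 2, at 59.7, 20.4 and 50.0 CPM.

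**Figure D3:**
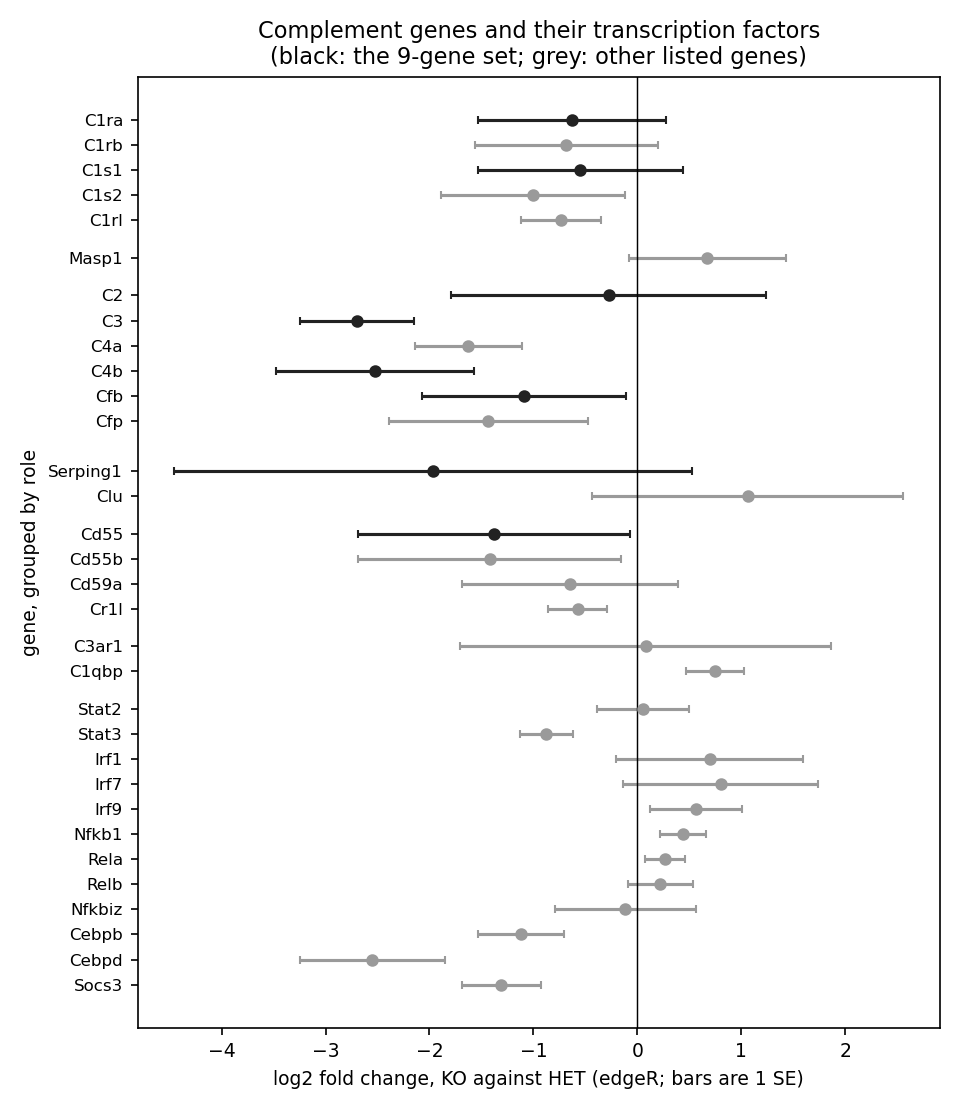
Log2 fold change of KO against HET with 1 SE (edgeR, n = 3 each) for the reported complement genes and their transcription factors at 1 CPM in at least 3 libraries, grouped by role, with the 9-gene set in black. C3, C4b and Cebpd lie beyond -2, Serping1 has the widest bar, and no gene shown passed the adjusted threshold.

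Apart from the C1 cluster, the genes most alike in profile were not complement genes. For C3 they were Il1r1 (root mean square difference 0.49, log2, 6 libraries), Fzd1 (0.50) and H2-DMb1 (0.51), and the closest of the complement and factor lists was Socs3 (0.74). For C4b they were S100b (0.29), Tlr5 (0.67) and Klhdc7a (0.69), for Cfb Drd4 (0.28), Ccdc89 (0.30) and Vmo1 (0.31), and for C2 Tmeff2 (0.31), Ano3 (0.44) and Pcdhgb5 (0.44). For Cd55 they were Fam217b (0.40), Nnmt (0.45) and Layn (0.47). No gene came closer to Serping1 than Hspb7 (1.32), followed by Tshz2 (1.60) and Rps4l (1.79).

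To set genes beside each other, levels per length are needed. The length behind the deposited RPKM followed the gene span with introns, at 1.225 times the span in the median of 15895 genes, and was 4.98 times the merged exons of GENCODE M21. Levels were therefore also computed as estimated counts per kilobase of merged exons, scaled to the library total as in RPKM, a choice made after seeing the files. On that scale the medians over 6 libraries were 22.8 for C1s1, 21.3 for Serping1, 17.0 for C1ra, 7.65 for C3, 5.34 for Cd55, 1.11 for C4b, 0.995 for Cfb, 0.879 for C2 and 0 for C7. On deposited RPKM they were 4.84 for C1s1, 3.995 for Serping1, 3.72 for C1ra, 1.33 for C3, 0.894 for Cd55, 0.376 for Cfb, 0.330 for C4b, 0.0782 for C2 and 0 for C7, so that C4b and Cfb exchange places. On merged exons the library ranges of all neighbours in this order overlapped. In single libraries the leading gene on merged exons was C3 in HET replicate 1 (39.9), Serping1 in HET replicates 2 and 3 and KO replicate 3 (74.2, 83.5 and 41.8), and C1s1 in KO replicates 1 and 2 (55.8 and 26.0).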

How the data were processed

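RNA was measured in 6 libraries of cultured mouse fibroblasts, 3 labelled HET and 3 labelled KO. Per the submitters' processing notes, Partek, cutadapt 1.2.1 and Bowtie2 were used, with the builds GRCm38 and mm10; counter, counting strand and annotation: not given in the sources used here. Estimated counts per symbol, unscaled between libraries, were deposited by the authors, with 84.4% of values whole. The authors also deposited RPKM. Of 48408 rows, 30 carried a biotype word in place of a symbol and were left out, and 7 symbols on more than 1 row were summed.

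Estimated counts were rounded, filtered with filterByExpr, scaled by TMM and tested over 17584 genes with edgeR 4.0.16 (quasi-likelihood F test, two-sided, Benjamini-Hochberg adjustment over all genes, threshold 0.05). SE was derived as |log2 fold change| over the root of F. CPM uses TMM-scaled totals. The test was tested on simulated data with a fixed spread that was not taken from these libraries, so its power at their spread is not known. Alternatives were DESeq2 1.42.0, limma-voom and limma on log2(RPKM + 1) or log2(RPKM + 0.1) from limma 3.58.1, other scalings and filters, and libraries left out. Replicate numbers follow accession order and pair nothing. The members and the gene lists were chosen with earlier results of these data known. By rule, all members were named, and other listed complement genes where they reached 1 CPM in at least 3 libraries; names outside it are marked, and some listed genes are not reported here. Likeness is the root mean square difference of log2 CPM (prior count 2), each gene centred on its 6-library mean, with the 3 closest genes taken and unnamed gene models left out. The 4 motifs were chosen after the values were seen.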

Additional observations from a re-analysis of the deposited data

How the results depend on the processing

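The count of members past the adjusted threshold was 0 in edgeR and 1 in DESeq2 (C3, log2 fold change -2.71), and over all genes it was 0 and 240. For complement genes with members it was 0 and 1. The count of members lower in KO was 8, stayed between 5 and 8 with any 1 library left out, and was 5 when HET and KO replicate 3, which share a title number, were left out together. There C1ra, C1s1 and C2 turned to 0.62, 1.05 and 0.71. Without HET replicate 3 alone they were 0.13, 0.56 and 0.43. C2 also turned to 0.30 without KO replicate 2, to 0.03 without KO replicate 3, and to 0.16 without HET replicate 2 and KO replicate 3, an alternative chosen after seeing the data. With 1 library left out, log2 fold changes ran from -1.40 to 0.13 for C1ra, from -1.51 to 0.56 for C1s1 and from -2.11 to 0.43 for C2, and differences in log2 ratio from -0.44 to 0.19 (C1ra to C1s1), from -1.18 to 1.55 (C2 to Cfb) and from -7.24 to 0.42 (Serping1 to C1s1). These differences turned to 0.19 (C1ra to C1s1) and -0.25 (C2 to Cfb) without HET replicate 1, to -1.18 (C2 to Cfb) without KO replicate 1, and to 0.42 (Serping1 to C1s1) without KO replicate 2, whose Serping1 value rests on the added 0.5 counts. Scaled by total counts only, the median of all genes moved from 0.01 to 0.15 (log2), 38.4% of genes in place of 49.1% were below 0, and all 8 members stayed below 0. No paired analysis was possible because the titles share only 1 number between the labels; a term for that number gave -2.69 for C3, -5.12 for Serping1, -0.30 for C1s1 and -0.13 for C2. Under limma-voom the median of the members was -1.94, with Cd55 at -3.29 and Serping1 at -4.45. On log2(RPKM + 1), which understates low genes, it was -0.55, with C3 at -1.57 and C4b at -0.65, and on log2(RPKM + 0.1) it was -1.22, with C3 at -2.22. Where DESeq2 and edgeR differ, the cause was not tested. C7 cannot be judged at this depth.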

Other observations

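Transcripts of liver plasma proteins stood out in 1 library and were looked for after its low counts of terminal complement genes had been seen. In HET replicate 3, Alb (albumin) stood at 12.5 CPM, Apoa1 at 6.04 CPM, Fga at 4.24 CPM, Ttr at 2.31 CPM and Vtn, vitronectin, at 1.29 CPM. In the other 5 libraries each was at 0.114 CPM or less. Cfi (factor I) stood at 0.981 CPM in the same library and at 0.228 CPM or less elsewhere. The same library was the highest for 5 of the 8 tested members, and whether liver transcripts took part in that was not tested.

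Markers of inflammatory fibroblasts mostly had a log2 fold change below 0, with a median of -1.58. Of 10 listed, 8 had a log2 fold change below 0 (49.1% of all tested genes) and 2 above, none passed edgeR and 2 were lower by DESeq2 (0.961% of all tested genes), Ly6c1 and Clec3b. The genes below were named after their values were seen. Ly6c1 measured 318, 85.3 and 52.7 CPM across the HET libraries and 9.28, 3.10 and 3.85 CPM across the KO libraries (-4.81 ± 0.89, edgeR adjusted p = 0.579, DESeq2 adjusted p = 4.3e-07). Clec3b stood at 2.83, 9.04 and 52.4 CPM in HET and at 0.592, 0.0775 and 0.0397 CPM in KO (-6.41 ± 1.56, edgeR adjusted p = 0.579, DESeq2 adjusted p = 4.7e-05). With 3 counts in KO replicate 2 and 1 in KO replicate 3, it was at or under the floor there, so the size of its change is uncertain. Lif, a cytokine of the interleukin 6 family, lay the other way, at 9.53, 24.5 and 18.3 CPM in HET and at 48.4, 33.2 and 79.0 CPM in KO (1.62 ± 0.46, edgeR adjusted p = 0.579). Cxcl12 was highest in KO replicate 2, at 1975 CPM, and lowest in KO replicate 3, at 24.3 CPM.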
